A study of Mus musculus with 3 samples.

Results

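The matrix metalloproteinases (Mmp), the proteases of the Adamts family and the tissue inhibitors of metalloproteinases (Timp) were read in 3 cell fractions of mouse epididymal fat. Members were all genes whose name on the array was Mmp, Timp or Adamts followed by a number, whatever their signal. The rule took 91 probes of 46 genes, out of 37325 genes with a name on the array, and comprised 23 Mmp, 4 Timp and 19 Adamts genes. Epididymal fat of male C57/BL mice aged 20 weeks was dispersed with collagenase and spun at 9 g for 1 s. Cells below the floating layer were the stromal vascular cells (SVC). The floating layer was spun again at 226 g for 3 min, after which the sediment was named SPA (small proliferative adipocytes) and the cells that still floated were the mature adipocytes (MA). SVC and SPA were grown in DMEM and harvested at 90% confluence, whereas no culture is described for MA, so that the effect of culture cannot be told apart from cell type in any comparison with MA. The labels also give MA another date than SVC and SPA, which share theirs, and this difference cannot be told apart from the others either. No mouse carried a named allele or received a drug, and how many mice gave the RNA of each array is not given in the labels.

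Matrix metalloproteinases are zinc enzymes that are made as inactive proenzymes and cut collagens, elastin, gelatin and many other proteins outside the cell or at its surface. Adamts proteases carry thrombospondin repeats that hold them to the matrix, and cut large proteoglycans, procollagens and other matrix proteins. Timps bind the active site of these enzymes and block it. In adipose tissue the pericellular matrix is degraded and rebuilt as adipocytes enlarge and as new fat cells form, and these 3 families are among the proteins that carry this out.

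Each fraction was hybridised to 1 array with 59305 spots that were not controls, so no test between fractions was possible and no p-value is given. A level below is the log2 of a processed signal over its own array's 75th percentile, where the level is 0. Differences are log2 ratios between arrays, and for a gene with several probes the brightest on average over the arrays was used. Levels of different genes are not set against each other, since probes differ in brightness. The only measured errors were technical. Probes that were spotted 10 times varied by a median SD of 0.04 (SVC), 0.04 (SPA) and 0.05 (MA) on the log2 scale within an array, and the signal errors that the scanner software gave for member probes above background ran from 10% to 22%. The spread between animals or cultures was not measured. A spot not well above its background gave only a limit, written here as "at least", with the dimmest level well above background on that array (from -5.15 to -4.95) or the dim probe's own level, whichever was higher, in its place. The 75th percentile stood at a signal of 430 in SVC, 439 in SPA and 366 in MA, between 58.6% and 61.4% of spots were well above background, and no member probe was saturated. Among the probes used, the local background was outlying for Adamts2, Adamts10 and Mmp10 in SVC and SPA, and for Adamts1 and Adamts18 in SVC. It was also outlying for Mmp9, Mmp24 and Mmp25 in SPA and for Mmp15 in MA. Adipocyte markers were higher in each fraction in turn, with 5, 7 and 7 of 7 well above background and a summed linear level (1 at the percentile) of 1.11 in SVC, 41.7 in SPA and 2610 in MA. Adiponectin (Adipoq) and perilipin 1 (Plin1) were not well above background in SVC.

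SVC had 33 of the 46 genes well above background at the probes used, SPA 35 and MA 32, and 27 genes passed in all 3 fractions. Adamts13, Adamts20, Mmp1a, Mmp1b, Mmp20, Mmp21 and Mmp25 were not well above background at any probe on any array. Adamts17 was detected in MA, at a level of -3.25, by 1 of its 4 probes, which was not the probe it was read at.

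Few genes on the array differed by 5-fold between cultured SPA and cultured SVC, so the small counts among the members say little about them. A ratio or limit could be formed for 36 members, of which 1 was at least 5-fold higher in SPA (Timp4, 2.78% of them, against 0.32% of the 22809 genes measured) and 0 were at least 5-fold lower (against 0.351%). Values nevertheless leaned to SVC, with a median log2 ratio of -0.43 over the 32 members measured in both, beside 0.05 over the 20823 genes measured in both. Most of this lay in the Adamts family, of which 12 genes had a lower level in SPA and 2 a higher level, although Adamts18 (-0.03) and both higher genes, Adamts14 (0.18) and Adamts2 (0.13), changed sign under some ways of processing. The 18 Mmp genes were split evenly, 9 on either side (8 and 10 with another scaling).

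MA stood much further from both cultured fractions. Relative to SPA, 5 of 37 members were at least 5-fold higher in MA (Timp4, Adamts16, Adamts4, Mmp15 and Adamts9, 13.5%, against 5.47% of all genes measured) and 7 were at least 5-fold lower (Mmp12, Timp1, Mmp3, Mmp8, Mmp11, Mmp7 and Mmp27, 18.9%, against 3.97%). Relative to SVC, 3 of 38 were at least 5-fold higher in MA (Timp4, Adamts16 and Mmp15, 7.89%, against 5.72%) and 9 at least 5-fold lower (the 7 above with Mmp14 and Adamts6, 23.7%, against 3.96%). The families parted in direction: 14 of 18 Mmp genes had a lower level in MA than in SPA, whereas 10 of 15 Adamts genes had a higher level. The other scalings and background correction moved these 2 counts of direction by at most 1 gene, Mmp9 or Adamts2. Leaving out spots of outlying local background turned Adamts10 (to 1.88) and Adamts2 to higher in MA. Taking the median of a gene's probes turned Adamts5 (to 0.11) and Adamts2 the same way. Both counts include limits, and the share of all genes in either direction was not counted. Of the 14 lower Mmp genes 7 belong to the chromosome 9 group described below. Elsewhere 7 Mmp genes were lower and 4 higher, with a median log2 ratio of -0.17 over the 10 measured in both. Medians over the members measured in both were close to those of all genes, at -0.13 against -0.08 for MA over SPA and at -0.27 against -0.07 for MA over SVC. RNA of bulk fractions cannot tell fewer cells of a type from less RNA per cell, and this holds for every difference given here.

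**Figure D1:**
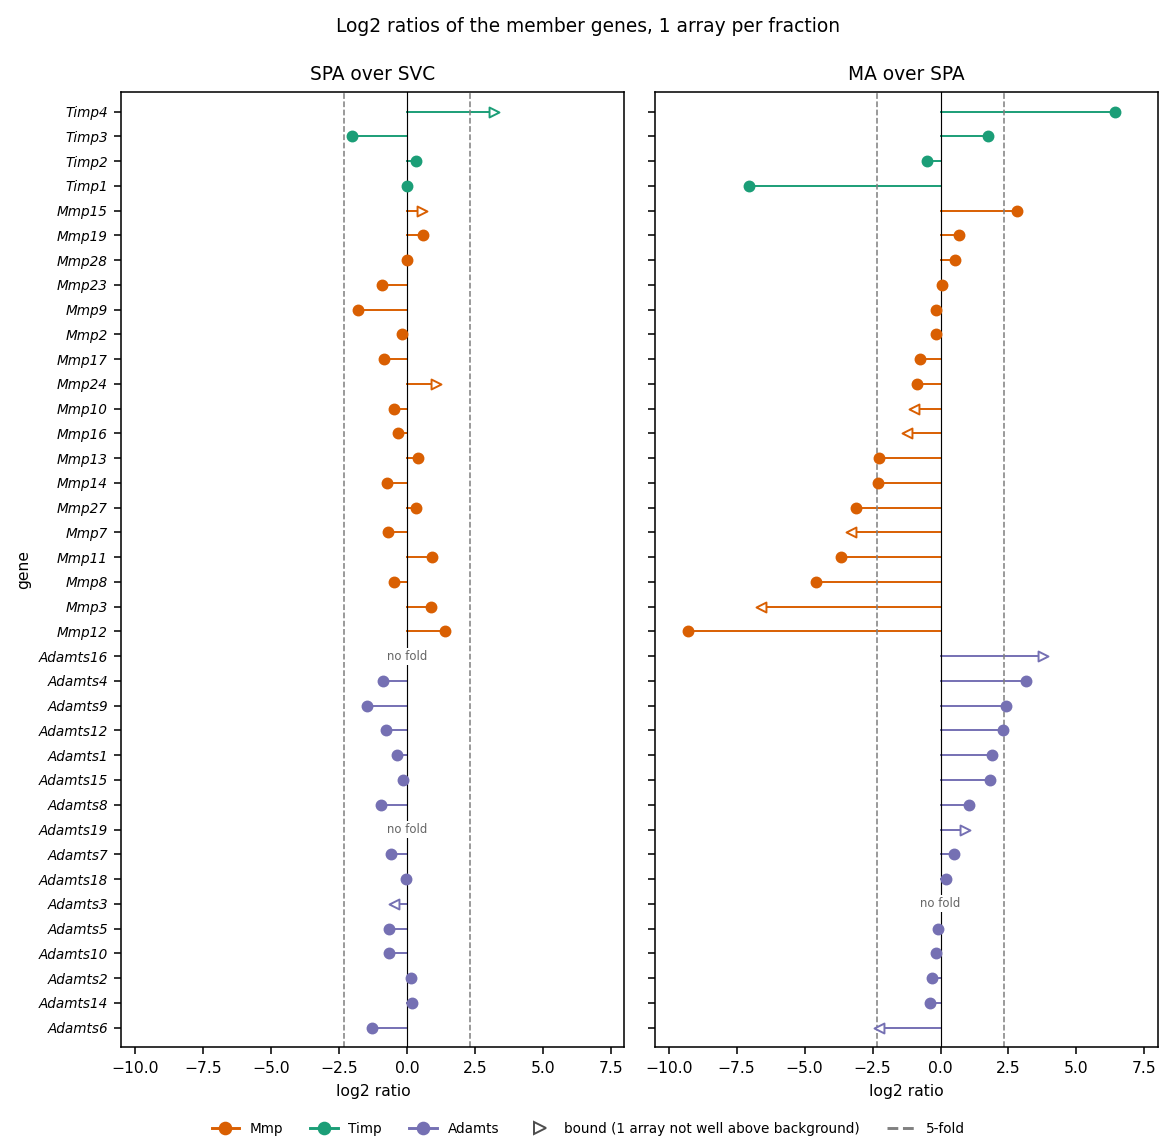
Log2 ratios (x axis) of the 38 member genes well above background on at least 1 array (y axis), for SPA over SVC on the left and MA over SPA on the right, with 1 array per fraction. Filled circles are measured ratios, open triangles limits where an array was not well above background, and dashed lines mark 5-fold. On the left Timp4 lies beyond a dashed line, and on the right 5 genes lie beyond the upper line and 7 beyond the lower.

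The 4 inhibitors did not move together. Timp1, the secreted inhibitor of most soluble metalloproteinases, had a level of 8.70 in SVC, 8.69 in SPA and 1.63 in MA. It was thus alike in the cultured fractions, with a log2 ratio of -0.01. In MA it was 133-fold lower than in SPA, a difference of -7.06. Over 9 other ways of processing this difference ran from -7.06 to -6.98. Those that filter spots or choose between probes could not move it. Timp1 has 1 probe, well above background on every array and without an outlying local background. Its single probe covers chrX:20451675-20451733 on the plus strand (mm9), and its sequence is shown because every Timp1 value rests on it.
Timp1 probe: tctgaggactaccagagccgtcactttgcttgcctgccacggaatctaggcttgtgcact

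Timp4, an inhibitor with a narrow tissue range that includes fat, went the other way. Its level was -5.17 in SVC, where it was not well above background, -1.74 in SPA and 4.68 in MA. Timp4 was 86.0-fold higher in MA than in SPA (6.43 on the log2 scale) and, at this probe, at least 795-fold higher in MA than in SVC. In SPA it was at least 9.24-fold higher than in SVC (chr6:115195840-115195899, minus strand, mm9). A second probe was well above background on every array, at -4.39, -2.44 and 4.01, and gave the same difference between MA and SPA (6.45) but 3.86-fold between SPA and SVC, under 5-fold, and 338-fold between MA and SVC. With another background correction the SPA over SVC ratio of Timp4 was 1.35, also under 5-fold. The remaining Timp4 probe was well above background in MA, at -3.97, and not in the others. The order MA, SPA, SVC was that of the adipocyte markers, whose part in it was not tested.

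Timp3, which is held in the matrix and also blocks Adamts proteases, was lowest in SPA. Its level was 5.60 in SVC, 3.58 in SPA and 5.33 in MA, so that it was 4.06-fold lower in SPA than in SVC and 3.36-fold higher in MA than in SPA. MA over SVC was -0.27. All 3 Timp3 probes had this shape. SPA over SVC was -2.02, -2.14 and -2.64, the last of which passed 5-fold at the dimmest probe. Mesothelial markers were all 6 well above background on every array, with summed levels of 35.8, 9.52 and 22.3. Msln, Upk3b, Krt19 and Lrrn4 were at least 5-fold lower in SPA than in SVC and at least 5-fold higher in MA than in SPA, whereas Krt8 (4.06, 1.96 and 1.51) and Wt1 (2.75, 1.85 and 1.70) were lowest in MA. Smooth muscle and pericyte markers summed to 727, 329 and 55.3, a sum carried by Acta2 and Tagln, while Rgs5 had levels of -3.61, -2.03 and 3.30 and Myh11 and Des were also higher in MA than in SPA. The part of either cell type in the Timp3 values was not tested.

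Timp2, which blocks Mmp2 and, with Mmp14, also helps to activate it at the cell surface, was level across the fractions at its brighter probe, at 6.68, 7.02 and 6.52. Its other probe, whose bases lie between chr11:118171964 and 118178741 (mm9), read 5.29, 5.28 and 3.32. MA over SPA was therefore -0.49 at the former and -1.96 at the latter, and quantile normalization turned the former to 0.23. The probes disagree in size, and neither passed 5-fold.

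**Figure D2:**
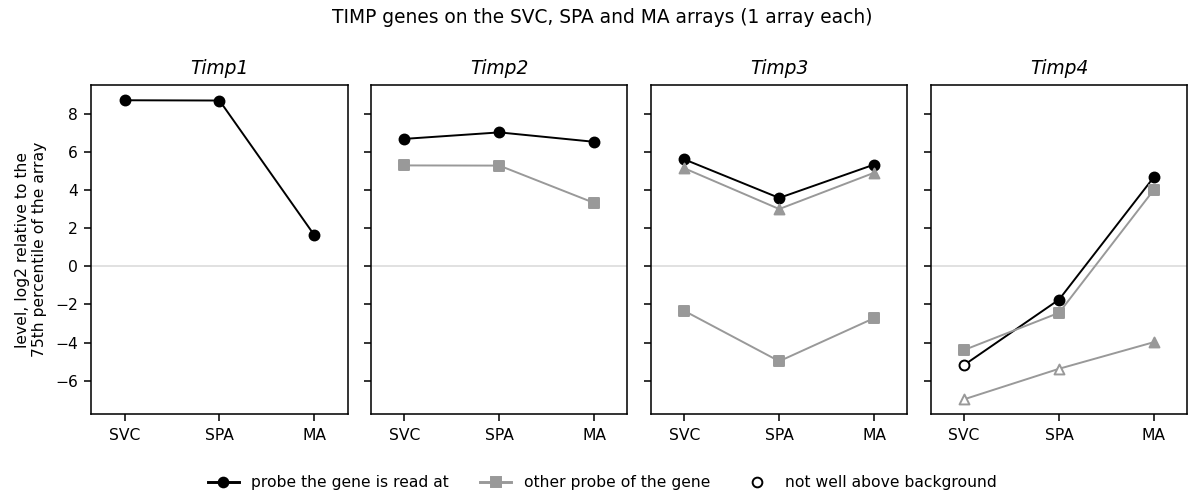
Levels of the 4 Timp genes (y axis, log2 over the array's 75th percentile) in SVC, SPA and MA (x axis), with 1 array per fraction, black for the probe a gene is read at, grey for its other probes and open symbols for spots not well above background. Timp1 drops from 8.69 in SPA to 1.63 in MA, Timp4 climbs from -1.74 to 4.68, Timp3 dips in SPA at all 3 probes and the probes of Timp2 part in MA.

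A group of 10 Mmp genes lies side by side on chromosome 9, in the order Mmp13, Mmp12, Mmp1b, Mmp3, Mmp1a, Mmp10, Mmp8, Mmp27, Mmp20 and Mmp7. Of these, 7 were well above background at the probes used in both cultured fractions, and 4 in MA. All 7 had a lower level in MA than in SPA, under every way of processing that gave a value. Of them 5 were at least 5-fold lower, against 3.97% of all genes measured. The median over the 4 genes measured in both was -3.85. Between SPA and SVC the 7 genes parted, 4 higher and 3 lower in SPA, with none at 5-fold. The 13 Mmp genes elsewhere in the genome had 4 higher and 7 lower levels in MA than in SPA. At 5-fold 1 was higher and 1 lower, against 5.47% and 3.97% of all genes measured. Counts of 1 among so few genes say little.

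Mmp12, the elastase of macrophages, showed the largest difference between MA and SPA of all members. Its level was 4.59 in SVC, 5.98 in SPA and -3.32 in MA. It was 627-fold lower in MA than in SPA (-9.29), 240-fold lower in MA than in SVC (-7.91), and 2.61-fold higher in SPA than in SVC (1.38). Its other probes, neither well above background in MA, gave differences of at least 402-fold and at least 298-fold between SPA and MA and the same SPA over SVC ratios, 1.38 and 1.43. The former of these has its 60 bases spread over 516 bases of the plus strand from chr9:7354810 to 7355325 (mm9), and is shown since Mmp12 had this largest difference.
Mmp12 probe: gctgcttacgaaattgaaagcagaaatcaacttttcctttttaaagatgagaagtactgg

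Macrophage markers moved less than Mmp12. All 8 were well above background on every array, with summed levels of 131 in SVC, 155 in SPA and 92.7 in MA. Cd68, a lysosomal protein of macrophages, had levels of 5.42, 6.30 and 3.20, and Adgre1, the surface receptor known as F4/80, 3.80, 3.86 and 1.90. Csf1r, the receptor for the macrophage growth factor, was nearly level at 5.11, 5.37 and 4.97, while C1qa, C1qb and C1qc were at least 5-fold lower in SPA than in SVC and at least 5-fold higher in MA than in SPA. The part of macrophages in the Mmp12 values was not tested.

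The stromelysins, broad enzymes that also activate other proenzymes, and matrilysin were low or absent in MA. Mmp3 had a level of 0.58 in SVC and 1.46 in SPA, and was not well above background in MA, where it was at least 97.5-fold lower than in SPA. Mmp10 was dim in the cultured fractions, at -3.70 and -4.17, and not well above background in MA, at least 1.97-fold lower than in SPA. Mmp7, matrilysin, had levels of -1.17 in SVC and -1.87 in SPA and was at least 9.72-fold lower in MA than in SPA, but its second probe was well above background everywhere, at -2.29, -3.33 and -4.88, and put the difference at 2.93-fold. Mmp11, a stromelysin that furin activates inside the cell and whose gene is not in the cluster, had levels of 1.84, 2.77 and -0.91, so that it was 12.8-fold lower in MA than in SPA and 6.75-fold lower than in SVC.

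Among the collagenases, which cut fibrillar collagen, Mmp8 had levels of 0.79 in SVC, 0.31 in SPA and -4.27 in MA. It was 23.8-fold lower in MA than in SPA and 33.2-fold lower than in SVC. Neutrophils are a known source of Mmp8, and the summed level of their markers was 3.62 in SVC, 10.1 in SPA and 6.69 in MA, with 5, 4 and 6 of 7 well above background, and Ngp in none. S100a8 (0.05, 2.62 and 1.35) and Elane (1.01, 1.84 and 1.23) peaked in SPA, with MA between SPA and SVC. Ltf was lowest in MA, S100a9 and Retnlg were highest there, and Camp was nearly level (-1.62, -1.91 and -1.80). From SVC to SPA, S100a9 fell from -2.43 to a spot not well above background, whereas S100a8 rose. The markers thus disagreed among themselves, and the part of neutrophils in the Mmp8 values was not tested. Mmp13 had levels of -0.74, -0.32 and -2.58, 4.79-fold lower in MA than in SPA, just under 5-fold. Mmp27, a little studied member, had levels of -1.05, -0.72 and -3.83, 8.66-fold lower in MA than in SPA. With the other background correction, which compresses dim values, the MA over SPA ratios were -1.66 for Mmp27 and -1.13 for Mmp7, under 5-fold, and -3.92 for Mmp3 and -2.77 for Mmp8, still beyond it.

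**Figure D3:**
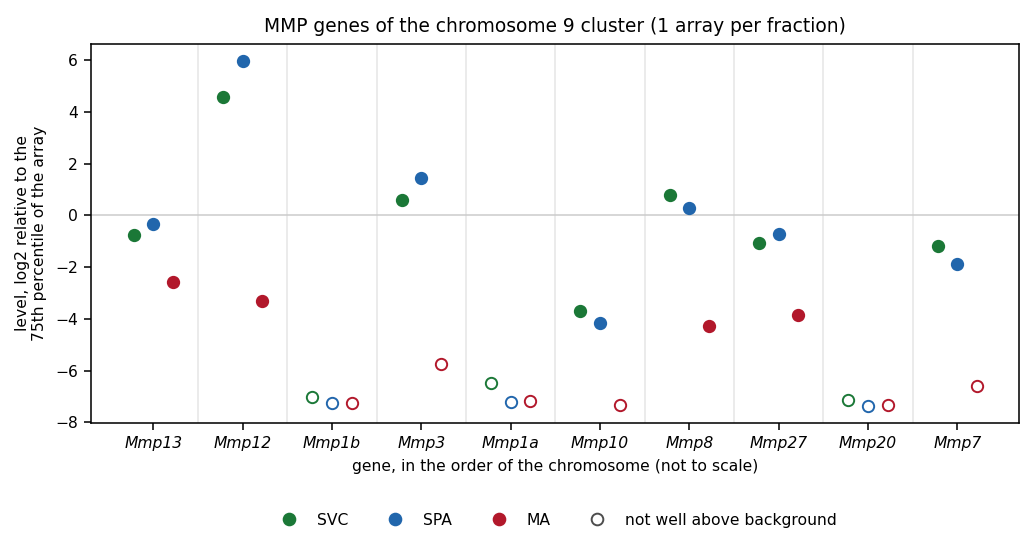
Levels (y axis, log2 over the array's 75th percentile) of the 10 Mmp genes of chromosome 9 in their order along the chromosome (x axis, not to scale), with 1 point per array, green for SVC, blue for SPA and red for MA, open where not well above background. In each of the 7 detected genes the red point lies below the green and the blue, and Mmp1b, Mmp1a and Mmp20 were not well above background in any fraction.

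The promoters of the cluster were searched for the core of the AP-1 site, TGAGTCA or its reverse complement TGACTCA, from 250 bases before to 50 bases after each gene start in RefSeq's GRCm38.p6 annotation. AP-1, a dimer of Jun and Fos proteins, is a known activator of several metalloproteinase genes. The motif was chosen after the values had been seen. Promoters matched 32 of the 46 members by symbol, and the others were Mmp2, Mmp9, Mmp16, Mmp17, Mmp19, Adamts4, Adamts5, Adamts6, Adamts7, Adamts8, Adamts10, Adamts15, Adamts16 and Adamts19. A match was found in 7 of the 32, all of them among the 10 genes of the cluster, whereas 5.20% of all 32851 promoters, and 5.95% of the genes they belong to, held it. The genes with a match included Mmp1a and Mmp1b, which were not well above background in any fraction, and left out Mmp8 and Mmp27, which were at least 5-fold lower in MA, so the matches did not sort the genes by their values. The letters TATAAA, or TTTATA on the other strand, were present in 9 of the 10 promoters of the cluster, against 13.6% of all promoters and 15.7% of genes. The 7 matches are shown with 30 bases on either side, read 5′ to 3′ along the gene with the match in capitals, because they are a feature that neighbouring genes shared and the choice of members did not use.
Mmp13, chr9:7272449-7272515, plus strand: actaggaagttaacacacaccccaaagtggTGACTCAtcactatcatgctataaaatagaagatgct
Mmp12, chr9:7347300-7347366, plus strand: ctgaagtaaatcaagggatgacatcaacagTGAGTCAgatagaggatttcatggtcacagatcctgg
Mmp1b, chr9:7388083-7388149, minus strand: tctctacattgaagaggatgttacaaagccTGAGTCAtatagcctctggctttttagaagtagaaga
Mmp3, chr9:7445746-7445812, plus strand: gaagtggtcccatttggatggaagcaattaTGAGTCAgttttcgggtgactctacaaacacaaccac
Mmp1a, chr9:7464038-7464104, plus strand: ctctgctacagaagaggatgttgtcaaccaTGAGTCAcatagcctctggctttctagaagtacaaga
Mmp10, chr9:7502249-7502315, plus strand: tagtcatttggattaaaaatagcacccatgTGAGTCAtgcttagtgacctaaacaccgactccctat
Mmp7, chr9:7691997-7692063, plus strand: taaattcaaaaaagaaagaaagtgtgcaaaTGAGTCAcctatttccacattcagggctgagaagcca

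The match began between 35 bases (Mmp13) and 93 bases (Mmp1b) before the gene start. A match is a string of letters and does not show that a factor was bound there in these cells.

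The gelatinases, which degrade denatured collagen and basement membrane collagen, differed from the cluster. Mmp2 was nearly level across the fractions, at 2.29, 2.11 and 1.94. Mmp9 had levels of -1.66 in SVC, -3.44 in SPA and -3.61 in MA, so it was 3.44-fold lower in SPA than in SVC and alike in SPA and MA (-0.17). The spot of Mmp9 in SPA had an outlying local background. The second Mmp9 probe, at -2.58 in SVC and not well above background in the others, put Mmp9 at least 5.18-fold lower in SPA.

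The membrane-type metalloproteinases are anchored at the cell surface, and of these Mmp14 is the main collagenase of the pericellular matrix in fat. Its level was 1.77 in SVC, 1.04 in SPA and -1.24 in MA, which was 8.04-fold lower in MA than in SVC and 4.87-fold lower than in SPA. Of the 6 smooth muscle and pericyte markers, Acta2, Tagln and calponin (Cnn1, at 4.92, 1.16 and -0.06) had the same order, whereas Rgs5, Myh11 and Des had a higher level in MA than in SPA, and their part in the Mmp14 values was not tested. Mmp15 had the opposite order. Its spot in SVC was not well above background, and its levels were -4.41 in SPA and -1.60 in MA, 7.02-fold higher in MA than in SPA and at least 10.2-fold higher than in SVC. Its spot in MA had an outlying local background, no other probe covered the gene, and with the other background correction the ratios were 1.25 and 1.46, under 5-fold.

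The other membrane-type genes stayed under 5-fold. Mmp17, which is held by a lipid anchor, had levels of 0.20, -0.64 and -1.38. Mmp16 was dim in SVC (-3.59) and SPA (-3.93) and not well above background in MA, at least 2.32-fold lower than in SPA. Mmp24 was dim too, at -3.87 in SPA and -4.71 in MA, and not well above background in SVC. Of the remaining Mmp genes, Mmp19, which cuts basement membrane proteins, was higher in each fraction in turn, with levels of 1.94, 2.53 and 3.23 in SVC, SPA and MA, and its second probe also had a higher level in MA than in SPA (0.93). Mmp23, which is made as a membrane protein, had levels of 2.41, 1.503 and 1.58, and Mmp28, epilysin, 0.06, 0.06 and 0.61. Neither differed by 5-fold in any comparison.

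Proteoglycan-cleaving Adamts proteases, which cut versican, aggrecan and related molecules, were lower in SPA than in SVC and for the most part higher in MA. Of the 7 such genes 6 were well above background, in all fractions, and all 6 had a lower level in SPA than in SVC, under every way of processing tried, by log2 ratios between -1.49 (Adamts9) and -0.15 (Adamts15). None of these reached 5-fold. In MA, 5 of the 6 had a higher level than in SPA and 2 of them at least 5-fold, against 5.47% of all genes measured.

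Adamts4 had levels of -0.72 in SVC, -1.58 in SPA and 1.56 in MA, and was 8.84-fold higher in MA than in SPA (3.14). Both other probes gave larger ratios, 21.2-fold and 20.5-fold. Relative to SVC, Adamts4 was 4.87-fold higher in MA at the probe read and over 5-fold at both others (4.28 and 4.08 on the log2 scale), so whether it passed depended on the probe. Adamts9, which also takes part in secretion and in the base of cilia, had levels of 0.48, -1.005 and 1.39 and was 5.26-fold higher in MA than in SPA. Its 3 other probes gave 7.62-fold, 14.5-fold and 30.6-fold. With the other background correction the ratio of Adamts9 was 2.07, under 5-fold, while that of Adamts4 was 2.72.

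Adamts1, the founding member of the family, had levels of 4.07, 3.69 and 5.59 and was 3.73-fold higher in MA than in SPA. With quantile normalization the ratio passed 5-fold, at 2.44. Adamts15 followed the same course at -1.02, -1.16 and 0.65, 3.51-fold higher in MA than in SPA. Adamts8, an inhibitor of vessel growth in addition to its protease role, returned in MA to its level in SVC, at -2.79, -3.73 and -2.67. Adamts5, the main aggrecanase of mouse cartilage, was the exception, with levels of 2.47, 1.82 and 1.74 at the probe read. A dimmer probe gave an MA over SPA ratio of 1.14. The remaining probe, at 0.11, lies on the opposite strand to both others, so it may not read Adamts5 mRNA. Endothelial markers were higher in MA as well: all 6 were well above background on every array, with summed levels of 5.82 in SVC, 6.92 in SPA and 68.3 in MA, and all 6 were at least 5-fold higher in MA than in either other fraction. Their part in the Adamts values was not tested.

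**Figure D4:**
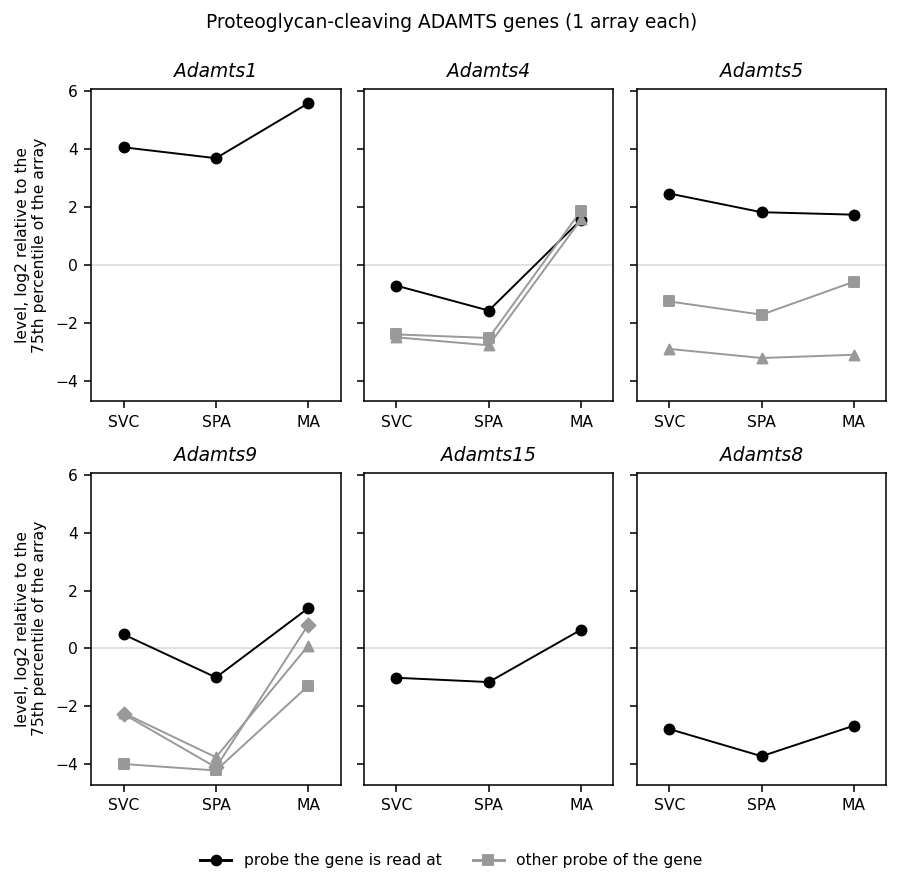
Levels of the 6 detected proteoglycan-cleaving Adamts genes (y axis, log2 over the array's 75th percentile) in SVC, SPA and MA (x axis), with 1 array per fraction, black for the probe a gene is read at and grey for its other probes. Every gene is lower in SPA than in SVC, and Adamts1, Adamts4, Adamts8, Adamts9 and Adamts15 are higher in MA than in SPA, whereas Adamts5 is 1.82 in SPA and 1.74 in MA at the probe read.

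The procollagen N-proteinases, which trim newly made collagen before it forms fibrils, were nearly level. Adamts2, the main enzyme for type I collagen, had levels of 4.87, 5.004 and 4.68, and Adamts14 0.91, 1.09 and 0.70. Both lay within 0.39 between any pair of fractions at the probe read. Their other probes gave the opposite sign in places, so neither has a settled direction. Adamts3 was well above background in SVC, at -4.67, and in neither other fraction.

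Of the other Adamts genes, Adamts16 stood out in MA. It was not well above background in SVC or SPA and had a level of -1.37 in MA, at least 13.6-fold higher than in SPA and at least 12.0-fold higher than in SVC, at chr13:70867148-70867207 (mm9). Its other 2 probes were not well above background anywhere, and with the other background correction the ratios were 1.86 and 1.64, under 5-fold. Adamts19 was likewise detected in MA alone, at -4.22, where the limit allowed a difference from SPA of at least 1.88-fold.

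Adamts12, which cuts cartilage oligomeric matrix protein, had levels of -0.34, -1.10 and 1.19 and was 4.90-fold higher in MA than in SPA, just under 5-fold. Of its dimmer probes 1 gave a smaller ratio, 0.69, and the other a limit of at least 0.99. Adamts7, the nearest relative of Adamts12, was nearly level at -0.02, -0.60 and -0.13. Adamts6, which acts on fibrillin microfibrils and adhesion, ran against most of its family. Its level was -1.63 in SVC and -2.90 in SPA, and in MA it was not well above background, at least 11.5-fold lower than in SVC and at least 4.76-fold lower than in SPA. With the other background correction the ratio to SVC was -1.34, under 5-fold. Adamts10, which binds fibrillin, had levels of -0.65, -1.32 and -1.50 at the probe read, while other probes put MA over SPA at 1.88 and 1.56 on the log2 scale, or, where MA was not well above background, at -0.63 or lower and at -1.48 or lower, so it has no settled direction. The probes at 1.88 and 1.56 are assigned to a RefSeq transcript, whereas the probe read and the others below 0 are assigned to other transcript sequences. Adamts18 was dim and level, at -4.64, -4.67 and -4.45.

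Genes around these enzymes were read from 4 lists. Proteases that activate proenzymes and their surface partners showed no gene beyond 5-fold in any comparison, out of 9. Over all genes measured the shares per comparison and direction ran from 0.32% to 5.72%, so a count of 0 among 9 says little. Furin, which cuts the propeptide of membrane-type metalloproteinases and Adamts proteases, had levels of 8.85, 8.79 and 8.90, and Plau, the urokinase that generates plasmin, 3.11, 3.14 and 1.84. Among 10 other inhibitors and collagen processing cofactors 1 differed by 5-fold: Serpine2, a serpin that blocks thrombin and urokinase, with levels of 3.92, 5.45 and 2.34, was lower in MA than in SPA by a log2 ratio of -3.12. Of all genes measured 3.97% were at least 5-fold lower in MA than in SPA. Reck, a membrane-anchored inhibitor of metalloproteinases, was level at 0.04, -0.15 and -0.03.

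Among 5 Adamts-like genes, which carry the ancillary domains without a protease, Adamtsl2 was not well above background in SVC or SPA. It stood at -1.89 in MA, on the log2 scale at least 3.04 above SPA and at least 3.06 above SVC. Adamtsl5 was lower in MA than in SPA (-2.33, just over 5-fold) and Adamtsl4 higher in MA than in SVC (2.75). The shares over all genes measured were 5.47% higher and 3.97% lower for MA over SPA, and 5.72% higher for MA over SVC. Of 9 substrates, 2 were at least 5-fold higher in MA than in SPA, the fibrillar collagen gene Col3a1 (5.54, 4.11 and 6.98) and elastin (Eln, -3.79, -3.61 and -0.08). The share over all genes measured was 5.47%. Eln and the basement membrane collagen gene Col4a1 (3.25, 3.81 and 5.59) were at least 5-fold higher in MA than in SVC, against 5.72% of all genes measured. Versican (Vcan), a substrate of proteoglycan-cleaving Adamts proteases, had levels of 1.37, 0.91 and -0.25. None of the 33 genes of the 4 lists differed by 5-fold between SPA and SVC. Of all genes measured only 0.32% were higher and 0.351% lower in SPA by 5-fold, so this count says little about the lists. Beside them, erythrocyte markers summed to 0.297 in SVC, 0.335 in SPA and 679 in MA, with 5 of 6 well above background in MA, fibroblast markers to 238, 108 and 377, and lymphocyte markers to 3.60, 3.80 and 5.38, and their part in the values of MA was not tested.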

How the data were processed

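RNA of 3 fractions (SVC, SPA and MA) was labelled with Cy3 from 50 ng and hybridised to 1 Agilent mouse array each, on 1 slide with 1 scan. The deposited intensity values were made by the authors with Agilent Feature Extraction 10.7.3.1, which subtracts and detrends the background. The authors' table of ratio values, deposited beside them, held the same processed signals divided by 1 constant per array (largest relative departure 1.37e-06), and its columns had medians of 0.0743, 0.0783 and 0.0789. Each log2 intensity was centred on the 75th percentile of its array over spots that were not controls, and outlier spots were left out (no member spot was). Genes were named from the array file. The accessions of 67 of the 91 member probes were in RefSeq's GRCm38.p6 table, which renamed 0 of them. For each gene the probe with the highest mean over the arrays was used, and a difference was counted from 5-fold, as in the study. With 1 array per group there was no test. The precision is limited by the number of arrays. Probe positions are those of the array file (mm9), no annotation of which was used here, so exons and untranslated regions are not stated. Named genes were all members well above background, and of the other lists those beyond 5-fold with a few for reference that were chosen after their values were seen. The members, lists and motifs were chosen with earlier results of these data known. The 9 alternatives were normexp background correction (offset 50, limma 3.58.1 in R 4.3.3), quantile normalization, a percentile over probes detected on all arrays, the authors' ratios, 2 other filters, 2 other rules for several probes and a filter on spots whose local background was outlying. Python 3.11.15 with numpy 2.4.6 and pandas 2.3.3 was used, and the code was tested on simulated data.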

Additional observations from a re-analysis of the deposited data

How the results depend on the processing

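The 111 member ratios gave 966 values under the 9 alternatives, and a ratio that a filter left undefined gave none. Of these values 937 stayed on the same side of 5-fold, 29 moved across it, and 0 that passed 5-fold turned direction. The share that stayed overstates stability, since many values could not move. The authors' ratios are the same signals over 1 constant per array, and requiring signal on both arrays only drops ratios. Probe rules cannot alter the 20 genes with 1 probe. With normexp background correction, which compresses dim signals, the genes at least 5-fold higher numbered 0 for SPA over SVC (1 as reported), 2 for MA over SPA (5 as reported) and 1 for MA over SVC (3 as reported). Where probes had to be well above background on both arrays, the higher genes numbered 0 for SPA over SVC and 0 for MA over SVC, since Mmp15, Adamts16 and Timp4 rest on limits there at the probes used (a dimmer Timp4 probe measured 338-fold for MA over SVC). Reading genes at the median of their probes gave 5 higher in MA than in SVC, and reading them at the probe with the largest ratio also gave 5, with Adamts4 and Adamts9 added. Genes at least 5-fold lower in SPA than in SVC numbered 0 as reported, 1 (Mmp9) without spots of outlying local background and 2 (Mmp9 and Timp3) at the probe with the largest ratio. Every other count was within 1.5 times of the one reported. Without the filter on dim spots, Adamts19 (3.14), Mmp10 (-3.17) and Mmp16 (-3.24) passed 5-fold for MA over SPA, all from spots not well above background. Signal over background is what limits the dim genes, and the single array per fraction limits all of them. No paired analysis was possible because each group had 1 array.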

Other observations

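In the RefSeq annotation (GRCm38.p6) 3 of the 4 Timp genes lie within a synapsin gene: Timp1 in Syn1, Timp4 in Syn2 and Timp3 in Syn3, with array probes on opposite strands. These neighbours were chosen after the Timp values were seen. Syn1, a coat protein of synaptic vesicles, had levels of -0.59 in SVC, -0.17 in SPA and -3.78 in MA, and was 12.2-fold lower in MA than in SPA, the direction of Timp1. Syn2, not well above background in SVC, had levels of -4.18 in SPA and -0.39 in MA, 13.9-fold higher in MA than in SPA, the direction of Timp4, but its other probes gave 0.44 and at least 0.82 on the log2 scale. Syn3 had levels of -2.15, -1.75 and -0.57, with SPA over SVC at 0.40 against -2.02 for Timp3. Of its other probes 1, which lies beside the Timp3 probes, had levels of -4.80 in SVC and -4.18 in MA and was not well above background in SPA, so it was lowest in SPA as Timp3 was. The Syn3 probes therefore disagree. The values are given as a description of 3 pairs of genes on 1 array per fraction.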
